A study of Mus musculus with 2 samples.

Results

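The genes described here are 9 antimicrobial and acute phase genes of the mouse, Saa3, Slpi, Lcn2, S100a8, S100a9, Ngp, Camp, Lyz2 and Chil3, out of 32285 genes in the deposited matrices. They were listed by symbol, and each symbol matched 1 gene in both libraries. The list was drawn up with values of these libraries in view, since Saa3 and Slpi had been seen to stand far higher in the vancomycin library. Their whole-library difference is therefore given as a description, and the account turns on which cells held the transcripts. Both libraries came from Nf1-OPG mice, a model of optic pathway glioma. These mice (Nf1flox/neo; GFAP-Cre) carry a floxed Nf1 allele and an Nf1 allele with a neomycin cassette inserted in exon 31, and GFAP-Cre removes Nf1 from neuroglial progenitors, so the control animals carry the same alleles. The treated group received vancomycin, a glycopeptide antibiotic active on Gram-positive bacteria, from 6 to 12 weeks of age, and the control group is named PBS in the design. Cells were taken at 12 weeks, with 10 mice pooled into each library, so each group is 1 library with no replicate. The tissue label is optic nerve, the protocol text also describes meningeal dura, and single cells were counted by 10x Genomics 5′ sequencing.

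Innate immune cells keep microbes in check with proteins that starve, puncture or digest them. Neutrophils load many of these into granules as they mature in the bone marrow. Slpi, a whey acidic protein, restrains the proteases that neutrophils release. Acute phase proteins such as the serum amyloids are induced by cytokines of the IL-6 and IL-1 families, largely in the liver, while Saa3 is made mainly by macrophages, fat and epithelium. In bone marrow, spleen and border tissues S100a8, S100a9, Ngp and Camp are used as markers of neutrophils and their precursors.

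The vancomycin library held 144451114 unique molecular identifiers (UMIs, each counting 1 captured molecule) over 16596 barcodes, and the control library held 25609899 over 4272. After filtering, 15726 and 4108 cells were kept, with medians of 6970 and 4870.5 UMIs. The libraries shared 100 barcodes. Cells were typed by gates of 8 marker genes, which placed 13100 vancomycin and 3291 control cells and held none of the 9 genes. The vancomycin library had 4092 oligodendrocyte-gated cells (26.0%), the defining glia of optic nerve, and no control cell passed that gate, so the 2 libraries differ in makeup as well as in treatment. A further 222 and 12 cells passed a gate of pituitary hormone genes, which the tissue label does not name. Transcripts of other cell types were found outside their source gates: the globin gene Hbb-bs stood at 5423 CPM (counts scaled to 1000000 UMIs) in T cells and 5640 CPM in microglia, against 804 and 27.6 CPM in the control library. It was in 16.9% of the vancomycin microglia without Saa3, so it was not spread evenly over them.

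Saa3 lies on chromosome 7 at positions 46711998 to 46715700 of mm10, on the minus strand, and Slpi on chromosome 2 at 164354070 to 164389095, also on the minus strand. Their promoter windows are shown because the account turns on these 2 genes and both windows hold matches to the C/EBP motif, the binding letters of the factors that drive acute phase and granulocyte genes. The windows run from 250 bases before to 50 bases after the start annotated in RefSeq (GRCm38.p6), chr7:46715627-46715926 and chr2:164356458-164356757, and capitals mark each match to TTNNGNAA on either strand. The GENCODE span of Slpi given above reaches further upstream than the RefSeq gene, so the Slpi window lies inside that span and not at its 5′ end.
Saa3: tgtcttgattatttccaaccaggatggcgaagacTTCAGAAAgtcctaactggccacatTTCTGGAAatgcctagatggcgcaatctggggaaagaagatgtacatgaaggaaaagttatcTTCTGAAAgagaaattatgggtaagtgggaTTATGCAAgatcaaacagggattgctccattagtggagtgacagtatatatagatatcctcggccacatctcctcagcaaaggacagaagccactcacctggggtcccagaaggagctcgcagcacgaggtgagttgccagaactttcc
Slpi: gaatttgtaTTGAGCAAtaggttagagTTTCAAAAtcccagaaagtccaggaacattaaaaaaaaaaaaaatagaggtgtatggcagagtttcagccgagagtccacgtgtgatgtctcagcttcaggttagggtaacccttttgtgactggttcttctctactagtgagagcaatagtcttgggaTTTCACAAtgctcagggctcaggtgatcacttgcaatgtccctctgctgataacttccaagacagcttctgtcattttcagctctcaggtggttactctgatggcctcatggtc
The Saa3 window held 4 matches and the Slpi window held 3. Of the 9 promoters, 8 held at least 1 match, Camp being the exception, and 40.7% of 32851 RefSeq promoter windows of the same length did. The NF-kB motif, searched on both strands, was in 3 of the 9 windows against 50.8% of all windows, and the STAT letters TTCNNNGAA in 1 of 9 against 8.30%. A match is a description of the letters in the window. S100a8 and S100a9, whose proteins pair to form calprotectin, are neighbours on chromosome 3 with 22.6 kb between them.

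Over all kept cells, Saa3 had 2373 UMIs in the vancomycin library and 5 in the control library, or 16.7 and 0.199 CPM. Slpi had 90961 and 5943 UMIs, or 640 and 237 CPM. Camp, which encodes the cathelicidin peptide, had 3542 and 30 UMIs (24.9 and 1.19 CPM), and Ngp, another cathelin-family granule protein, had 3458 and 143 (24.3 and 5.69 CPM). These 4 of the 9 genes met the rule for a difference used throughout: at least 20 UMIs over both libraries, a ratio of at least 2 after adding 10 CPM to each value, and an exact Poisson interval of the ratio that leaves out 1. Over the whole libraries 6.24% of 19554 genes were higher and 3.6% were lower by that rule, and since the list was chosen on this difference nothing is read from the count. The other 5 did not meet it. Lcn2, an iron-withholding lipocalin, stood at 8.41 and 3.66 CPM, S100a8 at 65.3 and 82.5, and S100a9 at 85.9 and 94.3. Lyz2, the lysozyme of myeloid cells, stood at 426 and 585 CPM, and Chil3, a chitinase-like lectin of macrophages and monocytes, at 2.23 and 7.72. Intervals here and below are 95% and cover counting error only, not the differences between mice. Reads may be shared with near copies, Saa1 and Saa2 for Saa3, Lyz1 for Lyz2 and Chil4 for Chil3, so values of these 3 genes are uncertain to that extent.

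Few cells carried most of several genes. In the vancomycin library the 10 richest cells held 67.5% of all Saa3 UMIs, 99.5% of Ngp, 99.7% of Camp and 83.7% of S100a8, but 8.71% of Slpi and 6.59% of Lyz2. A single cell held 17.0% of Saa3, with 403 UMIs, and another held 47.7% of Camp, with 1688. Without the 10 cells richest in each gene, Saa3 stood at 5.43 CPM, Camp at 0.0774 CPM, Ngp at 0.113 CPM and Slpi at 584 CPM. The whole-library levels of Saa3, Camp and Ngp rest on a handful of cells, and that of Slpi on many.

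**Figure D1:**
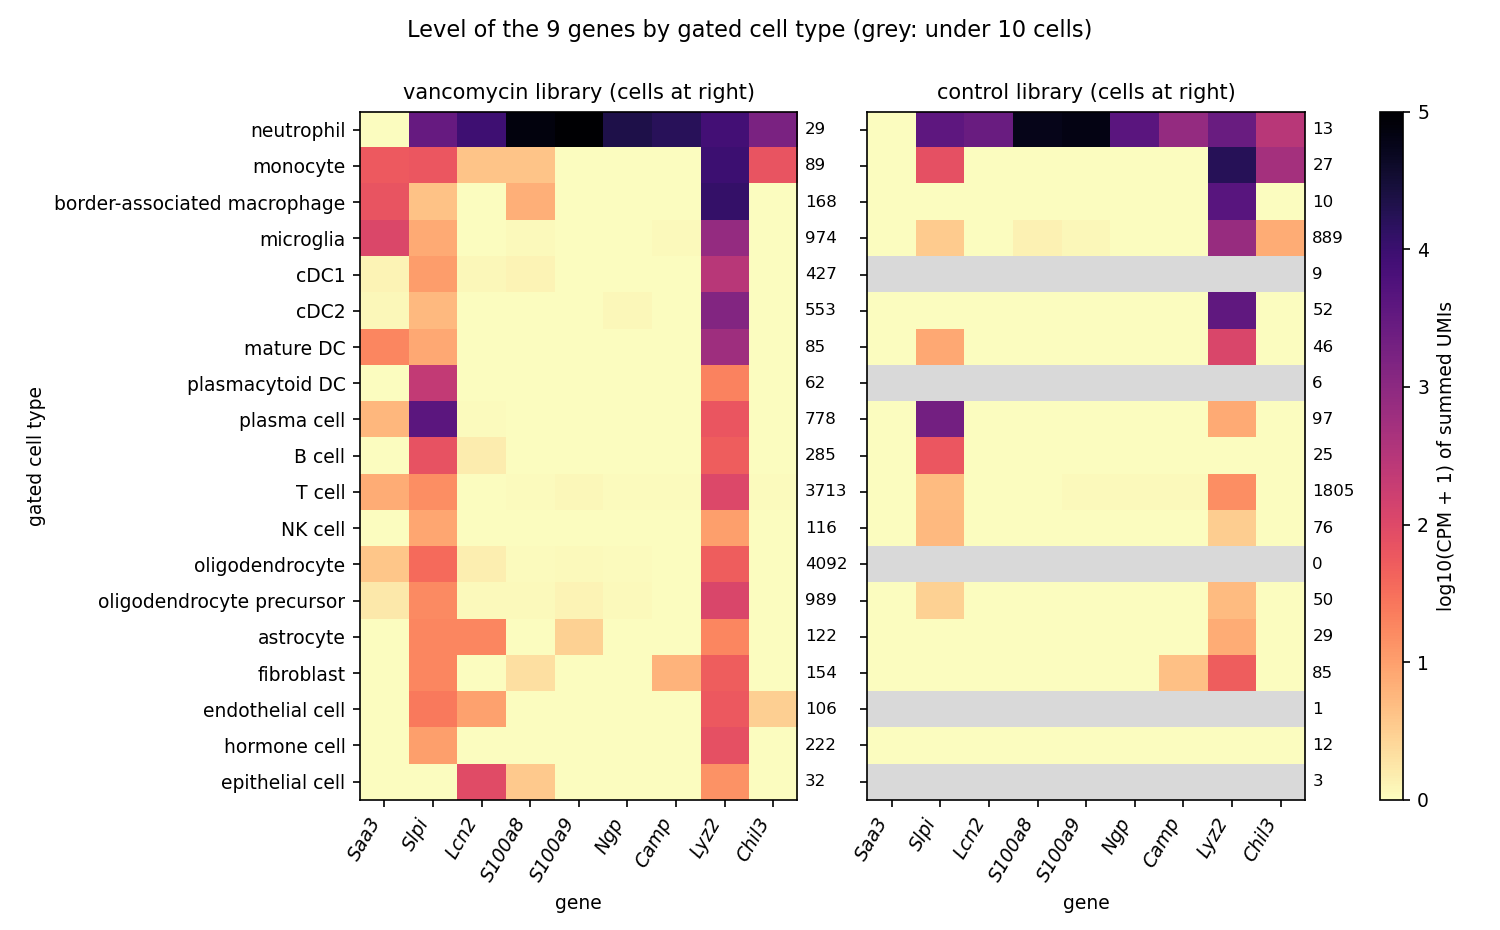
Level of each of the 9 genes (columns) in each gated cell type (rows), as log10(CPM + 1) of UMIs summed over the cells of a type, for the vancomycin (left) and control (right) libraries, with the number of cells beside each row and grey for types under 10 cells. Neutrophils are dark for every gene but Saa3, and plasma cells are dark for Slpi in both libraries. Lyz2 is dark over the neutrophil, monocyte, border-associated macrophage, microglia and cDC2 rows.

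Saa3 was found in cells with macrophage transcripts, almost all of them in the vancomycin library. It was detected in 127 of 15726 vancomycin cells and in 2 of 4108 control cells. Among gated types the most Saa3 UMIs were in microglia, the resident macrophages of the nervous system: 853 UMIs in 38 of 974 vancomycin cells, a level of 109 CPM (102 to 117). No control microglia had any, 0 of 889 cells, which allows 0.483 CPM at 3 counts. The vancomycin level was 226 times that floor, and the exact interval of the ratio, for counting error only, began at 183. Border-associated macrophages, which line the meninges and vessels, had 66.8 CPM in 168 vancomycin cells, with 0 UMIs in 10 control cells. That level rests largely on 3 cells, with 21, 19 and 18 Saa3 UMIs. The 10 control cells held 52215 UMIs of all genes, against 883831 in the vancomycin cells, so a like control level could be missed. Monocytes had 56.1 CPM in 89 vancomycin cells, largely from 3 cells with 13, 13 and 6 Saa3 UMIs. They had 0 UMIs in 27 control cells. Neutrophils had no Saa3 UMI in either library, 0 of 29 and 0 of 13 cells, which allows 41.9 and 87.4 CPM at 3 counts. With 1 cell left out, the microglial level was 57.6 CPM, and with the 10 Saa3-richest cells of the library left out the log2 ratio of CPM + 10 was 1.95 in place of 3.58.

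Microglia held only part of the Saa3-rich cells. The 46 vancomycin cells with 5 or more Saa3 UMIs, a minimum set after the values were seen, comprised 12 microglia, 13 cells that passed no gate, 6 that passed several gates, and 3 each of border-associated macrophages, monocytes and oligodendrocytes. The other 6 were 2 T cells, 2 plasma cells, 1 mature dendritic cell and 1 mural cell. All 46 contained transcripts of the complement gene C1qa, with a median of 101 UMIs and a range of 4 to 288. The macrophage genes C1qb, Fcer1g, Tyrobp and Aif1 were also in 46 of 46 cells, and Csf1r, the receptor that macrophages need to survive, in 41. Among 15599 vancomycin cells with no Saa3 UMI, C1qa was in 19.1% and Csf1r in 16.9%. The median depth of the 46 cells was 13207.5 UMIs, against 6970 in the library, and 1 of the 46 (2.17%) had a doublet score over 0.2, against 3.32% of all cells. P2ry12, a microglial receptor gene, was found in 24 of the 46 and Ccr2, a monocyte receptor gene, in 2.

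In the T cell, mural, plasma cell and oligodendrocyte gates most Saa3 UMIs were in 1 cell each, and these cells also carried myeloid markers. Of 127 Saa3 UMIs in T-gated vancomycin cells, 115 were in 1 cell, which held 6 T cell and 4 monocyte markers of 8 each. All 91 UMIs of the mural gate were in 1 cell, and 71 of 82 in the plasma cell gate were in 1 cell. In oligodendrocyte-gated cells 82 of 135 UMIs were in 1 cell, which held 5 microglial markers beside 8 oligodendrocyte markers. Left without that cell, T cells had 0.612 CPM and oligodendrocytes 1.16 CPM. Whether such cells are 2 cells in 1 droplet was not tested beyond their doublet scores, none of which exceeded 0.2 among the 10 richest cells.

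**Figure D2:**
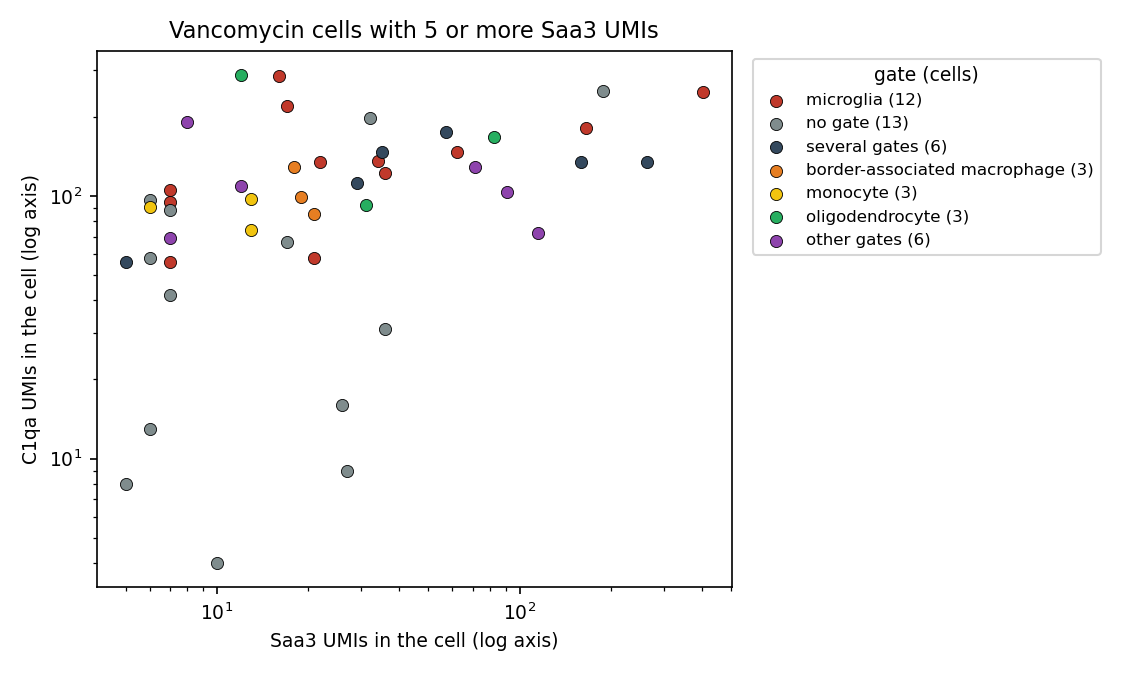
UMIs of Saa3 (horizontal) and of C1qa (vertical), both on log axes, in each of the 46 vancomycin cells with 5 or more Saa3 UMIs, coloured by the gate the cell passed. All 46 cells have C1qa, from 4 to 288 UMIs, whichever gate they passed, and the richest cell is a microglial one with 403 Saa3 UMIs.

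Saa3-rich microglia differed from the other vancomycin microglia in several genes of inflammation, some higher and some lower. The comparison is between 12 cells with 5 or more Saa3 UMIs and 936 with none, in 1 library, so it has no replicate and no test, and the first were deeper (medians 14382.5 and 6686 UMIs). Complement C3 stood at 593 against 105 CPM and factor B, Cfb, at 558 against 162 CPM, in 11 and 12 of the 12 cells. Chil1, a chitinase-like relative of Chil3, stood at 270 against 3.85 CPM, and was in 7 of the 12 cells against 2.46% of the others. Ptgs2, which makes prostaglandins, stood at 194 against 19.6 CPM, in 7 of the 12 cells. Serpina3g, a serine protease inhibitor, stood at 176 against 24.5 CPM, in 4 of the 12 cells. Some genes of the IL-6, IL-1 and C/EBP axis were lower. Cebpd stood at 147 against 345 CPM, Nfkbia at 382 against 1251 CPM and Il1a at 435 against 938 CPM. Tnf stood at 299 against 275 CPM. The T cell attractants Ccl5 and Cxcl9 stood at 9425 against 1859 CPM and at 2390 against 627 CPM. The homeostatic genes P2ry12 and Tmem119, both markers of the microglial gate, were lower, at 235 against 793 CPM and 429 against 854 CPM. Of the other 8 genes of the set, Lyz2 alone was common in these 12 cells, at 1004 against 768 CPM. These genes were named after their values were seen. Of the 46 Saa3-rich cells of any type 3 had a Slpi UMI, where 2229 of all 15726 vancomycin cells had one. Only 1 cell had 5 or more of both genes, among 978 cells of the library with 5 or more of Slpi. These counts are small, so nothing is read from the overlap.

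Under a stricter gate most microglial Saa3 left the class. Where a cell had to show 4 more microglial markers than markers of any other cell family, in place of 2, 571 vancomycin microglia remained with 50 Saa3 UMIs in 9 cells, or 10.5 CPM (7.83 to 13.9). Control microglia under that gate still had 0 UMIs, in 564 cells. Of these 50 UMIs 36 were in 1 cell, and the level without them was 2.95 CPM. Across 34 profiles of types with at least 20 cells, the genes most like Saa3 in their level were Adap2os, Ccl8, a chemokine of macrophages, and Gm37229, with Pearson r of 0.91, 0.90 and 0.90 among 17554 genes. These r values are descriptions, since the profiles share 2 libraries.

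Slpi was a plasma cell transcript in both libraries. Plasma cells, the antibody-secreting end stage of B cells, held 68440 of 90961 Slpi UMIs in the vancomycin library and 4557 of 5943 in the control library. Their level was 3981 CPM (3951 to 4011) over 778 cells and 2072 CPM (2012 to 2133) over 97 cells, a ratio of 1.92 (1.86 to 1.98). This is under the 2-fold rule, at a log2 ratio of 0.94 on CPM + 10, and with each cell weighted equally it was 1.03, just past it. The share of plasma cells with a Slpi UMI was 98.3% (765 of 778) and 83.5% (81 of 97), and with each cell thinned to 1000 UMIs it was 80.1% and 56.8%. Plasma cells made up 4.95% of kept vancomycin cells and 2.36% of kept control cells, so both the share of plasma cells and their Slpi level were higher in the vancomycin library, where the whole-library ratio was 2.71.

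Single plasma cells varied more than the libraries did. Slpi ranged from 0 to 42707 CPM among vancomycin plasma cells and from 0 to 10889 CPM among control ones, with medians of 2425 and 1204 CPM and interquartile ranges of 1140 to 5250 and 310 to 2811 CPM. The interquartile ranges of the 2 libraries overlapped. Cells whose most abundant heavy chain was IgA, the class of mucosal antibodies, stood at 3305 CPM over 338 vancomycin cells and 2048 CPM over 41 control cells, a ratio of 1.61 (1.53 to 1.70). IgG cells stood at 4477 CPM over 436 cells and 2084 CPM over 56 cells, a ratio of 2.15 (2.07 to 2.23). The ratios of the medians per cell were 1.99 for IgA and 2.01 for IgG, so the classes differed by the summed counts and not by their medians. IgA cells were 43.4% and 42.3% of plasma cells, so the mix of classes was close. Immunoglobulin genes took 60.3% and 63.5% of plasma cell UMIs. With them taken out of the totals Slpi came to 10021 CPM against 5673 CPM, 1.77 times as high. Jchain, the joining chain of secreted IgA and IgM, stood at 45567 and 44993 CPM in the same cells.

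**Figure D3:**
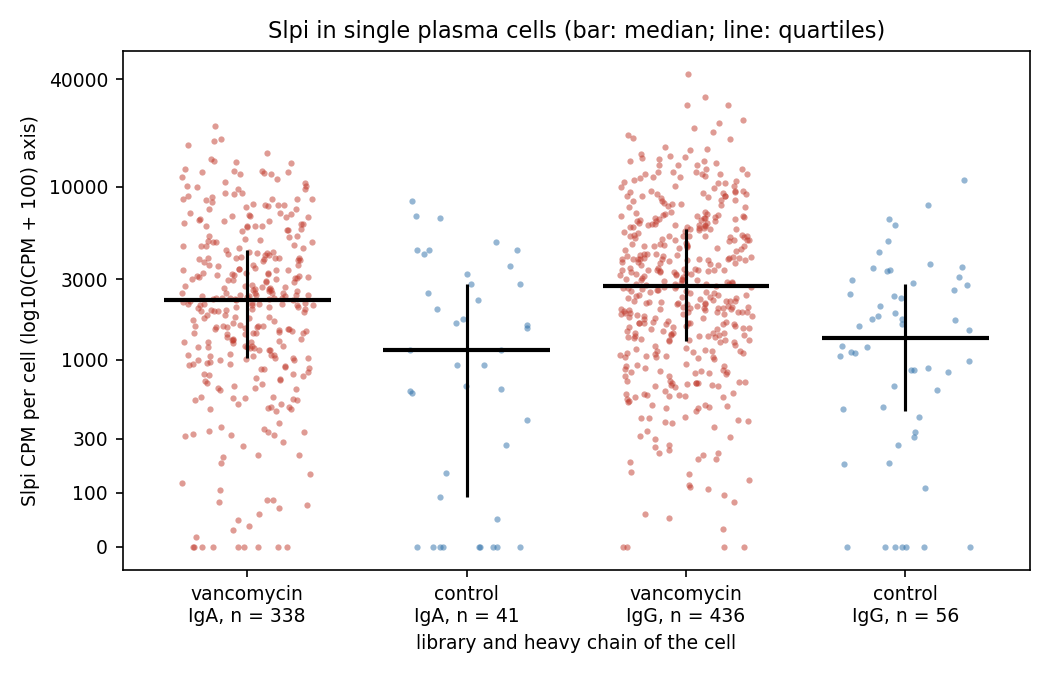
Slpi CPM of every IgA and IgG plasma cell (points) by library, on a log10(CPM + 100) axis, with the median (bar) and quartiles (line). The median is higher in the vancomycin library in both classes, the 4 groups overlap, and control cells at 0 are a larger share of their group.

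Slpi in cells that are not plasma cells was compared with Jchain, a marker of the plasma cell gate that T cells, microglia and glia should lack. T-gated vancomycin cells had 14.3 CPM of Slpi, 2.23% of the library-wide level, and Jchain stood at 4.06% of its own. Control T cells had 4.28 CPM, 1.81% of the library-wide level, with Jchain at 3.47%. The vancomycin plasma cells had 8.74 Slpi UMIs per 100 Jchain UMIs. Oligodendrocytes had 10.6 (10.1 to 11.2), oligodendrocyte precursors 11.5 (9.41 to 14.0), fibroblasts 10.1 (5.62 to 16.9) and B cells 11.2 (9.26 to 13.5). T cells had 4.87 (4.30 to 5.49), microglia 4.08 (3.03 to 5.39) and cDC1 2.21 (1.70 to 2.84). In the control library plasma cells had 4.60 (4.47 to 4.74) and T cells 2.70 (1.96 to 3.63), but microglia had 9.93 (5.43 to 16.9), from 15 Slpi UMIs, and B cells 41.2 (14.4 to 104), from 7. The 2 libraries therefore did not order these gates alike. The share of T cells with a Slpi UMI was 4.96% and 1.33% at median depths of 4119 and 5183 UMIs, and 1.33% and 0.339% after thinning. The part of free RNA and of mixed droplets in these values was not tested.

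In 3 other vancomycin types Slpi stood far above the Slpi to Jchain ratio of plasma cells. Plasmacytoid dendritic cells (DC), the interferon-producing dendritic cells, had 227 CPM over 62 vancomycin cells and 168 Slpi UMIs per 100 Jchain UMIs (124 to 228), with Slpi in 30 of the 62 cells. The 6 control cells of that type had 0 Slpi UMIs, which allows 48.0 CPM at 3 counts. Monocytes had 59.2 CPM over 89 cells and 75.7 CPM over 27 cells, with 54.3 Slpi UMIs per 100 Jchain UMIs (35.6 to 81.7) in the vancomycin library. That value rests largely on 2 of the 89 cells, which held 23 of the 38 UMIs, and 1 of the 2 had at least 3 plasma cell markers. Among the plasmacytoid dendritic cells 9 held 72 of 119 UMIs, and 2 of the 9 had at least 3 such markers. Neutrophils had 2916 CPM over 29 cells and 3699 CPM over 13 cells, and their intervals, 2534 to 3339 and 3084 to 4401, overlap. Their ratio in the vancomycin library was 633 Slpi UMIs per 100 Jchain UMIs (437 to 944). Cells that passed several gates held 19752 vancomycin Slpi UMIs. Of their 206 cells with 5 or more, 204 had at least 3 plasma cell markers, as did 11 of 11 in the control library. Of 19 oligodendrocyte-gated cells with 5 or more Slpi UMIs, which held 931 of the 1558 UMIs of that gate, 16 had at least 3 plasma cell markers, and their median depth was 30818 UMIs. The genes whose profile was most like Slpi over the 34 profiles were Derl3, which is itself a plasma cell gate marker, Ighv1-64 and Igkc, with r of 0.85, 0.82 and 0.79.

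**Figure D4:**
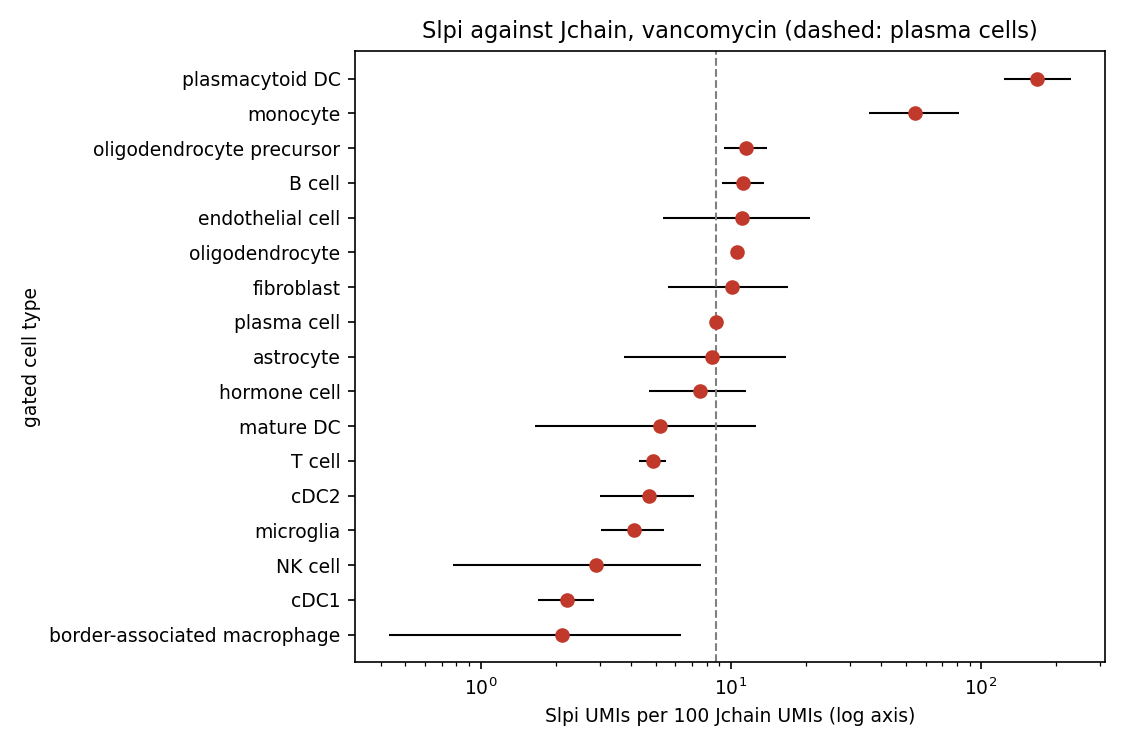
Slpi UMIs per 100 Jchain UMIs (log axis) in each vancomycin cell type with at least 50 Jchain UMIs and any Slpi, with exact 95% intervals and the plasma cell value as a dashed line. Plasmacytoid dendritic cells at 168 stand highest, followed by monocytes at 54.3, where 2 cells hold 23 of 38 Slpi UMIs, and neutrophils, with 33 Jchain UMIs, are not drawn.

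S100a8, S100a9, Lcn2, Ngp and Camp were neutrophil transcripts. The gates found 29 neutrophils in the vancomycin library and 13 in the control library, with median depths of 1652 and 3180 UMIs, too few for the comparison rule of 50 cells, so levels are set side by side. S100a8 stood at 74913 CPM (72923 to 76944) and 57611 CPM (55099 to 60207), and S100a9 at 106204 and 65212 CPM. Cell by cell S100a8 ran from 0 over a median of 38345 to 137390 CPM in vancomycin neutrophils, and from 2412 over 16038 to 121787 CPM in control ones, so the 2 sets overlap. Together the 9 genes made up 24.2% and 13.7% of neutrophil UMIs. T cells, which should lack S100a9, had 3 UMIs of it in 3713 vancomycin cells, 0.178% of the library-wide level. Fcnb and Stfa2l1, which are markers of the granulocyte gates, and Cstdc4 were the genes most like S100a8, all with r of 0.998, a value that rests on the 1 neutrophil profile of 20 or more cells.

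Ngp and Camp, granule genes of immature neutrophils, were in a minority of these cells, and Lcn2 was in most. Ngp was in 9 of 29 vancomycin and 3 of 13 control neutrophils, at 22404 and 4136 CPM, and Camp in 8 and 1 of them, at 16322 and 786 CPM. Lcn2 was in 20 and 7 of them, at 9165 and 2621 CPM. A single vancomycin cell passed the gate of granulocyte precursors and held 1688 Camp, 1130 Ngp, 1986 S100a8 and 2325 S100a9 UMIs among 23521, and no Slpi UMI. After thinning, 9 of the 9 neutrophils with Ngp had S100a8 and S100a9, 8 had Lcn2 and 7 had Camp. In the whole vancomycin library Ngp was in 18 cells and Camp in 19, and in the control library each was in 4. Among cells of several gates 6 vancomycin and 2 control cells had 5 or more S100a8 UMIs, and each of them had at least 3 neutrophil or precursor markers. Lcn2 was also in 7 of 32 epithelial vancomycin cells, with 34 UMIs, 89.5 CPM, and in 4 of 122 astrocytes, with 9 UMIs.

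**Figure D5:**
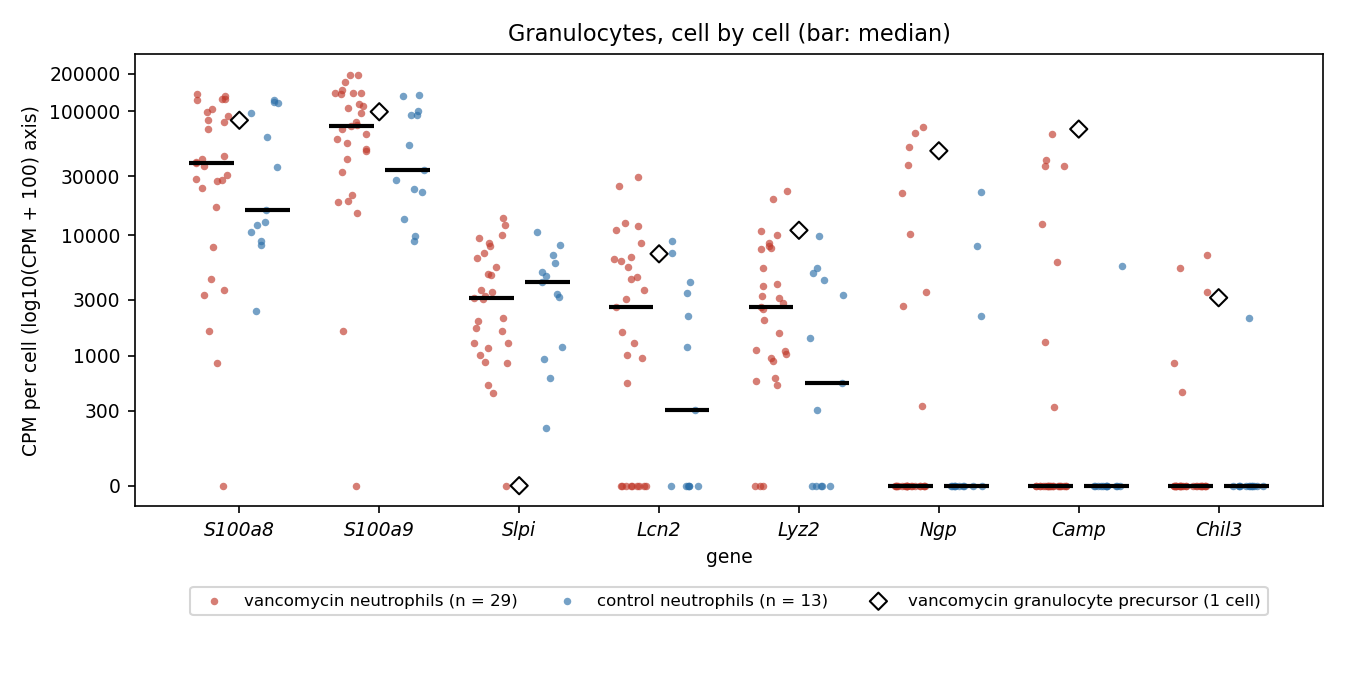
CPM per cell of 8 genes, on a log10(CPM + 100) axis, in the 29 vancomycin and 13 control neutrophils (points, with the median as a bar) and in the 1 vancomycin granulocyte precursor (diamond). S100a8 is above 0 in 28 of 29 vancomycin and 13 of 13 control neutrophils, while Ngp and Camp are at 0 in most and reach 74813 and 65177 CPM, and the precursor cell has Camp and Ngp but no Slpi.

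Lyz2 was the most widely held of the genes, with its highest levels in myeloid cells. Few mature dendritic cells had 5 or more Lyz2 UMIs, 6 of 85 vancomycin and 1 of 46 control cells. Border-associated macrophages held 10571 UMIs in the vancomycin library, a level of 11960 CPM (11734 to 12191) over 168 cells, and 4347 CPM (3800 to 4951) over 10 control cells. Monocytes stood at 9370 CPM over 89 cells and 17036 CPM over 27 cells, with medians per cell of 7204 and 21363 CPM. Neither type reached 50 cells in both libraries. Microglia differed little, with 789 CPM (770 to 809) against 727 CPM (706 to 749), and the ratio was 1.09 (1.04 to 1.13). In cDC2, the dendritic cells that present antigen to helper T cells, Lyz2 was lower in the vancomycin library, at 1330 CPM (1300 to 1361) over 553 cells against 3484 CPM (3313 to 3662) over 52 cells, a log2 ratio of -1.38. It was found in 74.9% and 90.4% of these cells, and in 39.6% and 58.8% of them after thinning. Their median per cell was 382 and 1419 CPM, and the quartiles, 0 to 1433 and 440 to 4796 CPM, overlap. Lst1, Igsf6 and Klra2, genes of myeloid cells, had the profiles most like Lyz2, with r of 0.94, 0.92 and 0.92.

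Outside myeloid cells Lyz2 was higher in the vancomycin library in 3 gates. T cells stood at 102 and 13.9 CPM, plasma cells at 61.9 and 6.82 CPM, and oligodendrocyte precursors at 112 and 4.09 CPM, the last from 2 control UMIs, with a ratio of 27.3 (7.52 to 225). Few cells carried it: 134 of 3713 vancomycin T cells had a Lyz2 UMI, 50 of them had 5 or more, and the richest had 277 UMIs. The share of T cells with a Lyz2 UMI, 3.61% and 2.99%, was closer between libraries than the level, and after thinning it was 1.38% and 0.622%. Without cells whose doublet score exceeded 0.2, oligodendrocyte precursors had 4.22 and 4.09 CPM. That removed 51 of 989 vancomycin cells and left 28 of 837 UMIs. Under the gate with a lead of 4 markers, T cells had 34.3 and 6.02 CPM and plasma cells 13.2 and 1.63 CPM. In fibroblasts, which should lack the gene, Lyz2 was near level between the libraries, with 51.0 and 49.2 CPM and a ratio of 1.04 (0.637 to 1.71).

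Chil3 was found in monocytes and neutrophils. Monocytes had 65.4 CPM (47.1 to 88.4), from 42 UMIs in 17 of 89 vancomycin cells, and 496 CPM (418 to 584), from 144 UMIs in 15 of 27 control cells. The 2 intervals do not overlap, but they cover counting error only and the control value rests on 27 cells. Of those cells 8 had 5 or more Chil3 UMIs, as did 3 of the 89 vancomycin cells. Neutrophils had 1618 CPM in 5 of 29 vancomycin cells and 291 CPM in 1 of 13 control cells. The 39 Chil3 UMIs of control microglia came from 2 cells, 1 with 38 of them, and vancomycin microglia had none.

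Of the gated types 7 had at least 50 cells in both libraries, which gives 63 pairs of gene and type, of which 15 had 20 or more UMIs. Of these pairs 5 were higher in the vancomycin library and 1 was lower, all but Saa3 in microglia and Slpi in oligodendrocyte precursors being Lyz2. In T cells Lyz2 was higher among 3 measured genes, where 1.87% of all measured genes were higher and 1.01% lower. In plasma cells Lyz2 was higher among 3, where 1.89% of all were higher and 0.8% lower. In microglia Saa3 was higher among 4, where 2.17% of all were higher and 1.9% lower. In oligodendrocyte precursors Slpi, at 15.5 and 2.05 CPM from 116 and 1 UMIs, and Lyz2 were higher among 2 (Slpi changed sign after thinning, to a log2 ratio of -0.27), where 4.17% of all were higher and 2.06% lower. In cDC2 Lyz2 was lower among 2, where 4.6% of all were higher and 2.54% lower. In fibroblasts the 1 measured gene met neither rule, where 2.76% were higher and 2.71% lower, and no member was measured in NK cells, where 4.12% were higher and 5.4% lower. Transcripts of other cells moved with Lyz2 in these gates in part: in T cells the myelin gene Mbp stood at 911 and 116 CPM and the globin gene Hba-a1 at 58.0 and 133 CPM, and in oligodendrocyte precursors Jchain stood at 134 and 20.5 CPM. Their part in the Lyz2 values was not tested.

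Genes of the same pathways stood higher or lower in vancomycin microglia. When cells were clustered instead of gated, different microglial clusters were largest in each library: clusters 14 and 13 held 606 and 551 vancomycin cells (231 and 98 control cells), and clusters 0 and 31 held 644 and 321 control cells (402 and 75 vancomycin cells). The part of this makeup in the values below was not tested. Over all 11667 genes measured in microglia, 2.17% were higher and 1.9% lower. Of 24 acute phase genes 6 were measured, 3 were higher and none lower, with a median log2 ratio of 1.01. The 3 were Cfb, at 183 and 33.5 CPM, C3, at 127 and 29.2 CPM, and Serpina3g, at 35.7 and 2.42 CPM, while the metallothionein gene Mt1 stood at 570 and 617 CPM and Cp, the copper carrier ceruloplasmin, at 10.8 and 11.6 CPM. Of 19 genes of the IL-6, IL-1 and C/EBP axis 17 were measured, 1 was higher and 3 lower, with a median of -0.61. Cebpd, an acute phase transcription factor, was the higher one, at 330 and 109 CPM. The cytokine genes Il1a, at 922 and 2395 CPM, and Tnf, at 268 and 571 CPM, and Socs3, a brake on IL-6 signalling, at 499 and 1043 CPM, were the lower ones. Cebpb stood at 1460 and 1737 CPM. Of 9 genes for receptors of these proteins 6 were measured, 1 was higher and 2 lower, with a median of -0.02. Cd36, a scavenger receptor that binds serum amyloid A, stood at 70.1 and 17.2 CPM. Cd14 and Tlr2, which sense bacterial lipids, stood at 979 and 3459 CPM and at 203 and 495 CPM.

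The remaining lists held 1 gene past the rule in microglia, beside the 8 of 10 genes of other cell types listed to follow free RNA, all of which were higher, with a median log2 ratio of 2.76 against 0.02 for all genes. Chil1, the 1 measured of 6 chitinase-like and resistin-like genes, was higher, at 13.7 and 1.13 CPM. None of 7 measured of 18 neutrophil granule genes met the rule, with a median of -0.20, and neither did any of 4 of 14 secreted defence genes, with a median of 0.00, nor any of 10 of 16 inflammatory monocyte genes, with a median of -0.05. Cyba and Cybb, subunits of the oxidase that makes superoxide, stood at 1016 and 672 CPM and at 172 and 90.1 CPM. Wfdc17, a whey acidic protein gene of macrophages, stood at 35.4 and 14.8 CPM, and Ly6c2, a monocyte surface gene, at 31.9 and 14.0 CPM. Other genes of these lists stood lower in the vancomycin library. Itgam and Adam8 of the granule list stood at 275 and 545 CPM and at 6.66 and 16.4 CPM. Rnase4 of the defence list stood at 359 and 481 CPM. Thbs1 and Il1rn of the monocyte list stood at 13.6 and 32.6 CPM and at 67.5 and 126 CPM.

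The same lists were read in plasma cells, where most Slpi was, and where 1.89% of all measured genes were higher and 0.8% lower. Of the acute phase genes 7 were measured and 2 were higher, with a median of 0.43 against 0.08 for all genes: Mt1, at 120 and 36.8 CPM, and Cfb, at 10.2 CPM against 0 control UMIs. Lgals3, which encodes a galactose-binding lectin, was the 1 higher gene among 4 measured secreted defence genes, at 18.3 and 3.18 CPM, with a median of 0.20. Cd14 was lower, at 33.4 and 113 CPM, among 6 receptor genes with a median of -0.02. No gene met the rule among 15 of the IL-6, IL-1 and C/EBP axis (median -0.18), 7 granule genes (0.10), 9 inflammatory monocyte genes (0.47) or 1 chitinase-like gene (0.19). Of 8 measured free-RNA genes 2 were higher and 2 lower, with a median of 0.00. Mbp was among the higher ones, at 188 and 12.3 CPM, and the lower ones were the globin genes Hba-a1, at 21.8 and 358 CPM, and Hba-a2, at 15.4 and 260 CPM.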

How the data were processed

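Single-cell libraries of 1 vancomycin and 1 control pool were analysed. The deposited matrices hold raw UMI counts per gene and cell, which Cell Ranger wrote for the authors in version 7.2.0 (vancomycin) and 6.0.1 (control), per the file headers, on mm10, per the submitters' processing notes; intron counting and cell calling are not given in the sources used here. Barcodes with at least 500 UMIs, 200 genes and at most 20% mitochondrial UMIs were kept, which left out 5.24% and 3.84% of barcodes. A cell was typed by 26 gates of 8 markers if it showed at least 3 markers of a type, 2 more than of any type of another family and 1 more than of any other type of its own. Vancomycin and control cells that passed none were 9.12% and 16.8%, and those of several gates 7.58% and 3.07%. Counts were summed by type and library and scaled to CPM, with exact Poisson and exact binomial (Clopper-Pearson) intervals at 95%. With 1 library per group no test was run and no p-value is given. Types with under 50 cells in either library were not compared. Cells were thinned to 1000 UMIs for the values given as after thinning, and all other shares were not corrected for depth. Doublets were scored with Scrublet and kept, and leaving out the 522 vancomycin and 48 control cells over 0.2 was an alternative.

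Named genes are the 9 members in each compared type, the 2 with most UMIs, the highest and the lowest ratios of each list in the source types of Saa3 and Slpi (some are left out of the text), and the 3 most alike profiles of Saa3, Slpi, S100a8 and Lyz2. C3 and Socs3, which met the rule for a difference in microglia, are named there as well. Genes named in Saa3-rich microglia were chosen after their values were seen. The members and lists were chosen with earlier results of these data known. Alternatives were other pseudocounts, TMM factors (edgeR 4.0.16), DESeq2 1.42.0 size factors, equal cell weights, other gates, no cell filter and clusters from scanpy 1.11.5. The calculation was tested on counts simulated from the Poisson model that its intervals assume. Such a test does not cover UMIs concentrated in single cells. Sequences are RefSeq's, all 9 symbols matching.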

Additional observations from a re-analysis of the deposited data

Results flagged for a closer look

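Each result here stands outside the compared types or differs in direction between them, without replicates, so no difference was tested. Lyz2 was higher in the vancomycin library in T cells, plasma cells and oligodendrocyte precursors, with log2 ratios of 2.23, 2.10 and 3.11, and lower in cDC2, at -1.38. Without cells whose doublet score exceeded 0.2, the ratio in oligodendrocyte precursors was 0.0129. The next results come from cells that no comparison used. Each was listed only because its vancomycin interval lay above the control interval of the same class. The direction was therefore set by that rule, and genes level or lower in these classes are not listed. Vancomycin cells that passed no gate had 118.5 CPM of Saa3 (0.747 in control cells), 32.0 CPM of Slpi (15.7) and 2654 CPM of Lyz2 (1352). Vancomycin cells of several gates had 30.7 CPM of Saa3 (2.95), 1072 CPM of Slpi (841), 15.8 CPM of Lcn2 (0), 103 CPM of S100a8 (67.1), 123 CPM of S100a9 (93.6), 38.9 CPM of Ngp (0), 36.7 CPM of Camp (0) and 4.56 CPM of Chil3 (0). Of these 1192 cells, 5 or more UMIs were in 2 cells each for Ngp, Camp and Chil3. They were in 3 for Lcn2, in 6 for Saa3 and in 6 each for S100a8 and S100a9. Cells this rare could be missed among the 126 control cells. The median depth of cells with no gate was 1161 and 1160 UMIs, and that of cells of several gates was 12694 UMIs in the vancomycin library and 9360.5 in the control library, where 187 of 1192 and 14 of 126 cells had a doublet score over 0.2.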

How the results depend on the processing

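No paired analysis was possible because each group is 1 library. Of the counted pairs of gene and type, 5 were higher and 1 lower; the count of higher pairs became 9 at a pseudocount of 1 CPM, 3 at 50 CPM, 2 after thinning and 11 with clusters in place of gates, and that of lower pairs became 2 at 1 CPM and 4 with clusters. The clusters included no neutrophil or monocyte cluster, so those cells fell in others. Slpi in plasma cells, 0.94 on the log2 scale, lay between 0.76 (clusters) and 1.03 (equal cell weights), with 0.81 for DESeq2 size factors, 0.85 for a lead of 4 markers and 0.82 without immunoglobulin genes, so it crossed 1 under equal weights alone. Saa3 in microglia, 3.58, became 6.78 at 1 CPM and 1.67 at 50 CPM, 2.89 under equal weights, 2.43 after thinning, 1.04 with a lead of 4 markers and 1.95 without the 10 richest cells. Lyz2 in cDC2, -1.38, became -1.27 under equal weights and -1.63 with clusters. Under a gate of 4 markers its levels were 1224 and 3288 CPM. Slpi in oligodendrocyte precursors changed sign after thinning, to -0.27, from few UMIs. Lyz2 in oligodendrocyte precursors, 3.11, became 0.0129 without cells whose doublet score exceeded 0.2. Leads of 4 markers, totals without immunoglobulin genes and the removal of the 10 cells were chosen after seeing the data. The causes were not tested. Pooling 10 mice into 1 library leaves no measure of variation between mice.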
